A study of Mus musculus with 20 samples.

Results

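The 10 genes described here encode subunits of voltage-gated calcium channels. They are the 3 alpha2delta genes Cacna2d1, Cacna2d2 and Cacna2d3, the 5 alpha1 genes Cacna1a, Cacna1b, Cacna1c, Cacna1e and Cacna1h, and the 2 beta genes Cacnb3 and Cacnb4. They were taken by symbol from the deposited count table, where each matched 1 of 78258 rows, and all 10 were among the 28564 genes with enough counts to be tested. RNA was sequenced from dorsal root ganglia, which hold the cell bodies of sensory neurons, of 10 male mice. The 5 conditional knockout (cKO) mice were Ahr fl/fl with Thy1CRE-ERT2/EYFP, a tamoxifen-activated Cre recombinase linked to a yellow fluorescent protein and driven by the Thy1 promoter, which is active in many projection neurons. The control mice are described as Ahr f/f or f/+; the names of the libraries of all 5 control mice hold "ff", and their titles call them wildtype. This gene encodes the aryl hydrocarbon receptor (AhR), a transcription factor activated by small ligands. Both genotypes received tamoxifen (100 mg/kg, intraperitoneal, on 5 days) at 17 weeks of age, and the sciatic nerve was transected 4 weeks later. The L4 to L6 ganglia of the lesioned (ipsilateral) and the opposite (contralateral) side of each mouse were taken 1 day after the lesion, which gave 4 groups of 5 libraries. The contralateral ganglia are therefore from operated animals, and there were no ganglia from unoperated mice among the samples used here.

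A voltage-gated calcium channel is built around an alpha1 subunit, which forms the pore and senses voltage and so sets the channel type. The beta subunits sit inside the cell and help the pore reach the membrane, and the alpha2delta subunits lie on the outer face, where they raise the number of channels at the surface and at nerve terminals. In sensory neurons N-type and P/Q-type channels open the way for transmitter release in the spinal cord, T-type channels set excitability near rest, and the Cacna2d1 and Cacna2d2 proteins are the binding sites of the pain drugs gabapentin and pregabalin.

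The 250 bases before the start of 3 member genes are given first, since they belong to the alpha2delta gene that rose, the alpha2delta gene that fell and the N-type pore gene, and since Ahr encodes a DNA-binding receptor. They are RefSeq promoters on GRCm38.p6 (Cacna2d1 at chr5:15934441-15934690, plus strand; Cacna2d2 at chr9:107399630-107399879, plus strand; Cacna1b at chr2:24763153-24763402, minus strand), read 5′ to 3′ on the strand of the gene, with the core of the AhR response element (GCGTG, or CACGC on the other strand) in capitals.
Cacna2d1: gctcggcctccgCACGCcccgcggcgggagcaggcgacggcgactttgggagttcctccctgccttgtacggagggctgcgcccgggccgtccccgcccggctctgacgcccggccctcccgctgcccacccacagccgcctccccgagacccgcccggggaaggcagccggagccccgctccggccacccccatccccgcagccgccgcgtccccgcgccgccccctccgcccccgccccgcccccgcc
Cacna2d2: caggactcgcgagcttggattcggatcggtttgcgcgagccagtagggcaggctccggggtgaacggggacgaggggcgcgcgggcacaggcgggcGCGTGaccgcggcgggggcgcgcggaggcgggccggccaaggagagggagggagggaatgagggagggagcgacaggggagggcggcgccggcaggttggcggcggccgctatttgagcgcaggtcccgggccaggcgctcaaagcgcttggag
Cacna1b: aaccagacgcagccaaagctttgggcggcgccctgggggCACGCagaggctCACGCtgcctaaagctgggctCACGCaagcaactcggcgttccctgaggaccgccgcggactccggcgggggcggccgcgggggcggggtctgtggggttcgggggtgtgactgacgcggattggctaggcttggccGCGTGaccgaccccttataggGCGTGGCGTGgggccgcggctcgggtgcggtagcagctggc
The Cacna1b stretch held 6 matches to this core, and the Cacna2d1 and Cacna2d2 stretches held 1 each, with its first base 238 and 154 bases before the start. Of the 13 RefSeq starts of the 8 matched members (Cacna1a and Cacna1h had no entry), 5 held the core, among them 2 starts of Cacnb4, and 28.2% of 32851 mouse promoters of the same length held it. The core contains a CpG, and the printed stretches are richer in G and C (82.4%, 74.4% and 72% for Cacna2d1, Cacna2d2 and Cacna1b) than the median of all promoters (52.4%), so that share is not matched for base composition. The CRE (TGACGTCA) and the AP-1 site (TGANTCA), both searched on both strands, were in none of the 13, against 1.55% and 6.75% of all promoters. A match describes letters in this window only. The Cacna2d2 window precedes its RefSeq start but lies inside the gene span given for it below, which comes from another annotation and begins at 107399612.

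The libraries held 76.2 to 118.5 M exonic counts (M, mega). The lowest count of a member was 468 (Cacna1e) and each other member had at least 2090 counts in every library, so the spread between mice and not counting error set the precision. All 15 sensory neuron markers were above 0 in every library, with a summed level of 11578 to 13870 CPM (counts per 1 M counts, TMM-normalised). Contralateral Ahr was 24.2 ± 2.10 CPM in control mice, against 20.4 ± 0.536 CPM in cKO mice (SD, n = 5). The ranges did not overlap, but the difference was not called (edgeR log2 fold change -0.25). Ipsilateral Ahr was 34.4 ± 2.86 CPM in control and 31.9 ± 2.94 CPM in cKO mice, with overlapping ranges, and was not called either. Thy1, whose promoter drives the Cre, was higher in cKO libraries on both sides (0.77 and 0.63, both called). These counts cover whole ganglia, so excision in single neurons was not measured. The contralateral libraries of 3 cKO mice, H64, H95 and H100, stood apart from the other 7 contralateral libraries. Their 6 fibroblast markers summed to 2236, 1980 and 1685 CPM, against 802 to 1356 CPM in the others, and their long genes (at least 8 kb of exons) lay 0.195, 0.130 and 0.106 below their short genes (under 2 kb) on the log2 scale, against differences of -0.01 to 0.09 in the others. The H100 contralateral library also held 1727 CPM of 6 skeletal muscle markers, against at most 361 CPM in a control contralateral library. The members' cKO injury values and the contralateral genotype and interaction values named below are given with all mice and also without H64 and H95. Their contralateral fibroblast sums were highest, and that pair was chosen after the data were seen. H100 stays in those fits, so they do not remove every library that stood apart.

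Levels of different genes were compared as CPM per kilobase of merged exons. In control contralateral ganglia Cacnb3, a beta subunit of many neurons, was highest at 95.9 ± 1.89 CPM per kb (SD, n = 5), followed by Cacna2d1 at 22.8 ± 1.92. Cacnb4, another beta subunit, and Cacna1b, the N-type pore, came next at 17.4 ± 0.617 and 17.3 ± 0.998 CPM per kb, and their libraries overlapped. Cacna1a, the P/Q-type pore, at 8.65 ± 0.588, and Cacna2d3, at 8.29 ± 0.463 CPM per kb, overlapped as well. Below them were the T-type pore Cacna1h (6.66 ± 0.563), Cacna2d2 (4.92 ± 0.366), the L-type pore Cacna1c (4.60 ± 0.333), which overlapped Cacna2d2, and the R-type pore Cacna1e (0.385 ± 0.0420 CPM per kb). On the ipsilateral side no neighbours in this order overlapped in either genotype, Cacna1b stood above Cacnb4, and Cacna2d2 was below Cacna1c. In cKO contralateral ganglia Cacna2d3 and Cacna1a changed places, with overlapping libraries, and the rest of the order was that of control contralateral ganglia. The annotated exons used for these lengths come from GENCODE release M21 and count every exon of the gene, also those that ganglia may not use.

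**Figure D1:**
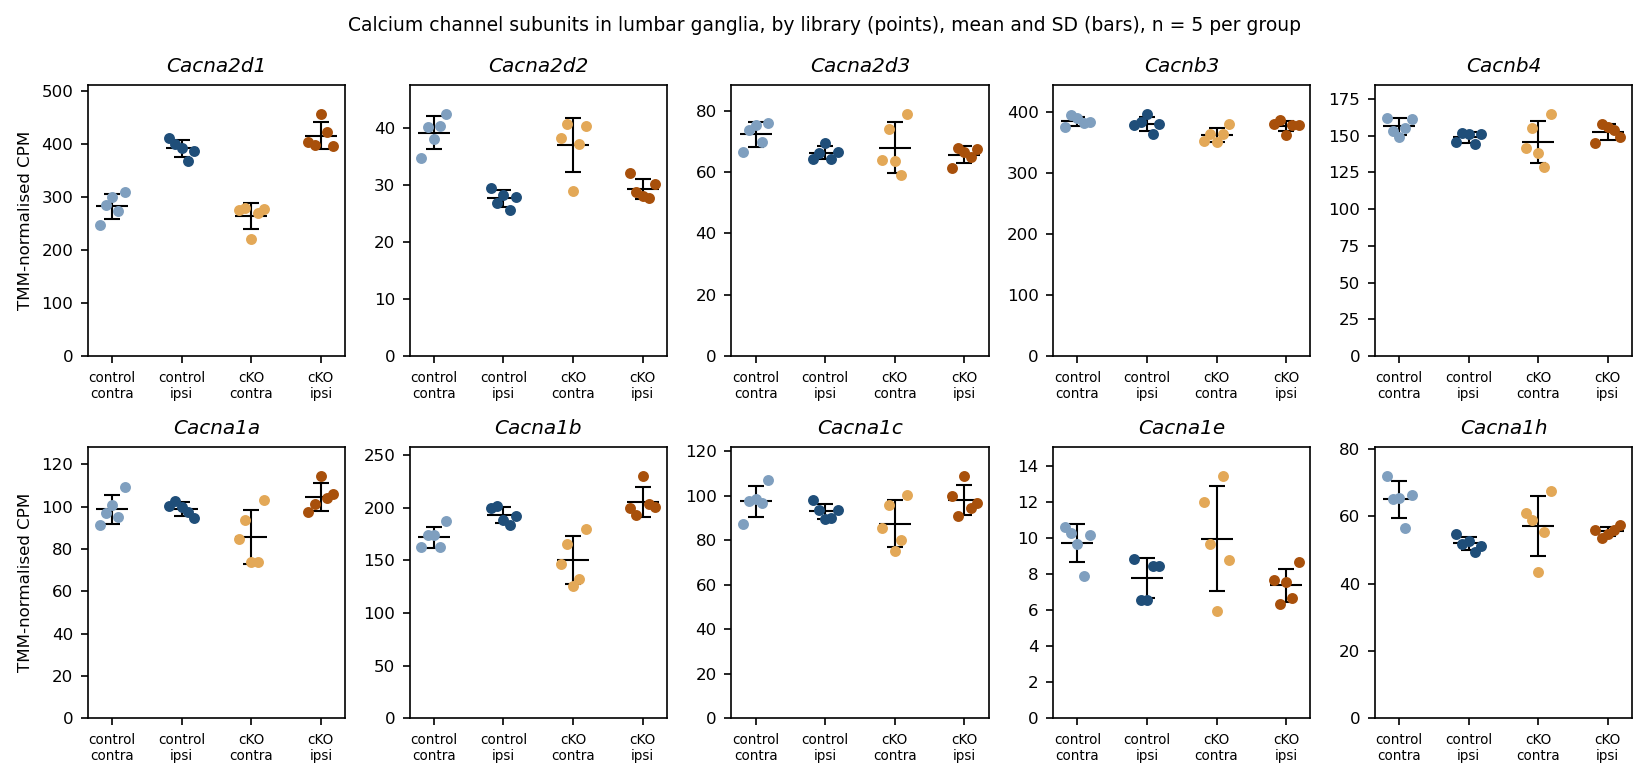
TMM-normalised CPM (vertical axes, starting at 0) of the 10 channel genes in the 4 groups, with 1 point per library and the mean and SD of 5 libraries as bars. Cacna2d1 is higher and Cacna2d2 lower on the ipsilateral side of both genotypes, and the coefficient of variation is highest in the cKO contralateral libraries for all 10 genes, from 3.15% (Cacnb3) to 29.2% (Cacna1e).

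Transection was followed by opposite changes in 2 alpha2delta genes. Cacna2d1 rose and Cacna2d2 fell in the ipsilateral ganglia of both genotypes, while Cacna2d3 was not called in either by the unpaired test. In control mice 3 of the 10 members were called at an adjusted p under 0.05 (edgeR quasi-likelihood test, Benjamini-Hochberg over 28564 genes), against 29.9% of all tested genes. Of these, 1 was higher (13.8% of all genes) and 2 were lower (16.0%). In cKO mice 4 of 10 were called, against 31.3% of all genes, with 3 higher (16.2%) and 1 lower (15.1%). With all mice these counts were close to the shares of genes at large. They rose to 6 in control mice in a fit of the control libraries alone (8801 of all genes called, against 8540) and to 8 in cKO mice without H99 (9077 of all genes, against 8939), and the cKO count was 3 without H64 and H95 (5587 of all genes). The median log2 fold change of the members was -0.07 in control and 0.06 in cKO mice, against 0.00 and -0.03 over all tested genes. Among 2450 genes with at least 8 kb of merged exons and at least 5 CPM on average, a range that holds most of these long channel genes, 44.7% were called in each genotype. Of those long genes, 20.98% were called higher and 23.8% lower in control mice, and 29.0% higher and 15.8% lower in cKO mice. The part of exon length in the members' calls was not tested. The injury comparisons of the genotypes share no libraries with each other, and each shares its groups with the genotype comparisons.

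Cacna2d1 (ENSMUSG00000040118, chromosome 5, 15934691 to 16374511 on GRCm38 in GENCODE M21) encodes the alpha2delta subunit known to increase in sensory neurons after peripheral nerve injury. In control mice H62, H63, H65, H96 and H97 its contralateral CPM was 248, 285, 299.5, 273 and 309, and its ipsilateral CPM was 412, 399, 393, 367 and 387. Every ipsilateral library was above every contralateral library. In cKO mice H61, H64, H95, H99 and H100 the contralateral CPM was 279, 221, 269, 278 and 276, and the ipsilateral CPM was 398, 457, 423, 397 and 403. The sides did not overlap here either, and H64 held both the lowest contralateral and the highest ipsilateral value. The log2 fold change was 0.47 (SE 0.0633, edgeR adjusted p 7.02e-06) in control and 0.65 (SE 0.0634, adjusted p 7.96e-08) in cKO mice, which is 1.38-fold and 1.57-fold, and the level was higher in 10 of 10 mice. Without H64 and H95 the cKO value was 0.53 (adjusted p 6.34e-06). The test of the difference between genotypes gave 0.18 (SE 0.0893, adjusted p 0.516), so the larger cKO estimate was not called as different from the control one. That difference was 0.09 without H64 and 0.05 without H64 and H95. In bulk ganglia a change in RNA per cell and a change in the share of a cell type cannot be told apart.

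Cacna2d2 (ENSMUSG00000010066, chromosome 9, 107399612 to 107529343), the other target of the gabapentin-type drugs, moved the other way. In control mice, in the same order, it had 34.8, 40.1, 38.0, 40.3 and 42.5 CPM contralaterally and 29.5, 26.9, 28.2, 25.7 and 27.9 CPM ipsilaterally. In cKO mice it had 40.6, 28.9, 37.2, 40.3 and 38.1 CPM contralaterally and 28.8, 28.0, 27.8, 30.1 and 32.0 CPM ipsilaterally. The sides were separate in control mice, and in cKO mice H64, at 28.9 CPM, was the only contralateral library inside the ipsilateral range. The log2 fold change was -0.50 (SE 0.0740, edgeR adjusted p 2.20e-05) in control and -0.34 (SE 0.0739, adjusted p 0.00138) in cKO mice, and the level was lower in 10 of 10 mice. Without H64 and H95 it was -0.38 (adjusted p 3.86e-04) in cKO mice. The difference between genotypes was 0.17 with all mice (SE 0.104, adjusted p 0.594) and 0.11 without H64 and H95. On the opposite strand 82 bases of its exons overlap those of Gm17141, about 1.03% of their length.

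Cacna2d3 (ENSMUSG00000021991), an alpha2delta subunit of neurons, had 66.5 to 76.1 CPM (median 73.6) in control contralateral and 64.3 to 69.5 CPM (median 66.4) in control ipsilateral libraries. It was lower in all 5 control mice, and the sides overlapped. The log2 fold change of -0.13 (SE 0.0609) missed the threshold (edgeR adjusted p 0.129), but it passed with the mouse as a block (-0.13, adjusted p 0.0477) and in a fit of the control libraries alone (-0.11, adjusted p 0.0438). In cKO mice it ranged from 58.9 to 79.0 CPM contralaterally and from 61.3 to 68.0 CPM ipsilaterally, was lower in 3 of 5 mice, and differed by -0.05 (SE 0.0608, adjusted p 0.619). The cKO value was -0.13 without H64 and H95 (adjusted p 0.198), about that of control mice.

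The makeup of the alpha2delta group within each library, which does not depend on the scaling between libraries, shifted toward Cacna2d1 in both genotypes. Per kilobase of exons, Cacna2d1 made up 63.2% ± 0.767 of the summed alpha2delta level in control contralateral and 74.0% ± 0.697 in control ipsilateral libraries (SD, n = 5). In cKO mice the share was 63.2% ± 1.81 contralaterally and 74.8% ± 1.37 ipsilaterally, and without H64 and H95 it was 62.8% and 73.9%. Cacna2d2 made up 13.7% ± 0.615 and 8.16% ± 0.219 in control mice, and 13.8% ± 0.629 and 8.28% ± 0.756 in cKO mice. Cacna2d3 made up 23.1% ± 0.532 and 17.8% ± 0.728 in control mice, and 23.1% ± 2.15 and 16.9% ± 0.944 in cKO mice. For each of the 3 genes the contralateral and ipsilateral shares did not overlap in either genotype. The shares of a library sum to 100%, so a rise of 1 gene lowers the others, and no test was made on them.

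**Figure D2:**
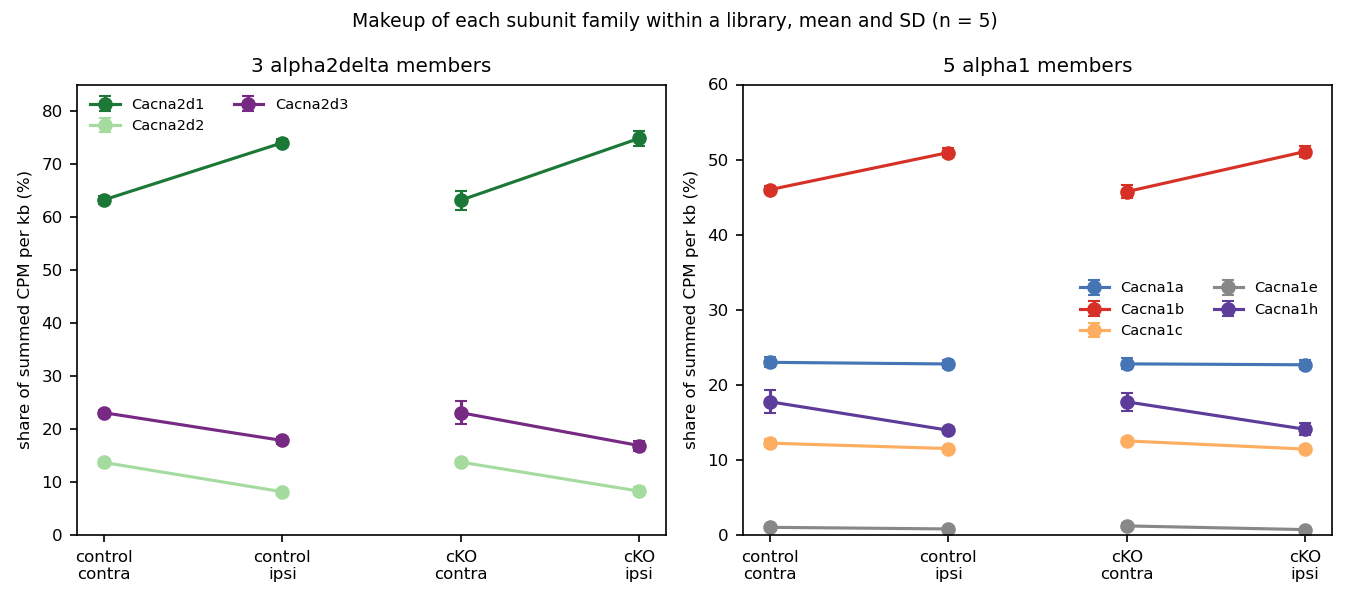
Share of each gene in the summed CPM per kb of the 3 alpha2delta genes (left) and the 5 alpha1 genes (right), in percent, as mean and SD of 5 libraries per group. The contralateral shares of the genotypes lie close together, and Cacna2d1 goes from 63.2% to 74.0% in control and to 74.8% in cKO ipsilateral libraries, while Cacna1b goes from 46.0% to 50.9% and from 45.7% to 51.1%.

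Among the alpha1 genes Cacna1b (ENSMUSG00000004113, chromosome 2, 24603887 to 24763152), the pore of the N-type channel, rose in cKO mice. In control mice, in the order given for Cacna2d1, it had 163, 174, 173, 163 and 187 CPM contralaterally and 199.6, 201, 188, 184 and 192 CPM ipsilaterally. It was higher in all 5 control mice, but the ranges overlapped, and the log2 fold change of 0.17 (SE 0.0761) was not called (edgeR adjusted p 0.112). In cKO mice it had 166, 126, 132, 180.1 and 147 CPM contralaterally and 193, 230.1, 203, 201 and 199.7 CPM ipsilaterally. All 5 cKO ipsilateral libraries were above all contralateral ones, with a log2 fold change of 0.45 (SE 0.0763, adjusted p 1.15e-04). The lowest contralateral values were those of H64, H95 and H100, the libraries with the highest fibroblast markers and the lowest long genes, and the part of these in the result was not tested. Without H64 and H95 the cKO value was 0.28 (adjusted p 0.00431) and the control value, refitted with the remaining libraries, was 0.18 (adjusted p 0.0103). The control value was also called without H64 alone (0.17, adjusted p 0.0486) and in a fit of the control libraries alone (0.18, adjusted p 0.00312). The test of the difference between genotypes gave 0.29 (SE 0.108, adjusted p 0.485; unadjusted p 0.0156) and 0.10 without H64 and H95.

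Cacna1a (ENSMUSG00000034656, chromosome 8, 84388440 to 84640246), the pore of the P/Q-type channel, had 91.3, 97.3, 101, 95.4 and 109 CPM contralaterally and 101, 103, 100.0, 97.4 and 94.5 CPM ipsilaterally in control mice. The groups overlapped throughout, 3 of 5 mice were higher, and the log2 fold change was 0.00 (SE 0.0747, edgeR adjusted p 0.974). In cKO mice it had 93.8, 74.1, 73.8, 103 and 84.7 CPM contralaterally and 101, 115, 104, 106 and 97.4 CPM ipsilaterally. It was higher in all 5 cKO mice, with overlapping ranges and a log2 fold change of 0.29 (SE 0.0747, adjusted p 0.00593). The call was made in 17 of 19 settings of the fit, this one included; it was lost without mouse H64 (0.20, adjusted p 0.0562) and without H64 and H95 (0.12, adjusted p 0.244), and kept without H95 alone (0.24, adjusted p 0.0222). The difference between genotypes was 0.28 (SE 0.106, adjusted p 0.485). Exons of Gm16183 on the opposite strand cover 435 bases, or 3.81%, of its exons, and the strand setting of the counts is not given in the sources used here.

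Cacna1h (ENSMUSG00000024112, chromosome 17, 25374285 to 25433783), the pore of the T-type channel most used by sensory neurons, fell in control mice. It had 72.0, 65, 65.4, 56.6 and 66.4 CPM contralaterally and 54.6, 51.6, 52.7, 49.3 and 51.3 CPM ipsilaterally, with no overlap. The log2 fold change was -0.33 (SE 0.0806, edgeR adjusted p 0.00400), with lower values in 5 of 5 mice. In cKO mice it had 59.0, 43.3, 55.2, 67.5 and 60.8 CPM contralaterally and 53.4, 54.7, 56.0, 57.3 and 55.8 CPM ipsilaterally. Those ipsilateral values lie within the contralateral range, 3 of 5 mice were lower, and the log2 fold change was -0.04 (SE 0.0806, adjusted p 0.737). Without H64 and H95 it was -0.16 (adjusted p 0.114). The call in control and the missing call in cKO mice do not show a difference: the test of it gave 0.28 (SE 0.114, adjusted p 0.491; unadjusted p 0.0228), and 0.15 without H64 and H95.

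The remaining pore genes were not called in either genotype by the edgeR fit with all mice, though some other settings called them. Cacna1c (ENSMUSG00000051331), the L-type pore, ranged from 87.3 to 107 CPM in control contralateral and from 89.6 to 97.9 CPM in control ipsilateral libraries, with a log2 fold change of -0.07 (SE 0.0680, edgeR adjusted p 0.513). In cKO mice it went from 75.2 to 100.1 CPM contralaterally and from 90.7 to 109 CPM ipsilaterally (0.17, SE 0.0680, adjusted p 0.0683). That value was 0.08 without H64 and 0.03 without H64 and H95 (adjusted p 0.785), and 0.23 without H99, where it was called (adjusted p 0.0171). Cacna1e (ENSMUSG00000004110), the R-type pore, was the least abundant member, with 7.92 to 10.6 CPM in control contralateral and 6.54 to 8.84 CPM in control ipsilateral libraries. Its log2 fold changes were -0.32 (SE 0.164, adjusted p 0.163) in control and -0.44 (SE 0.164, adjusted p 0.0501) in cKO mice, and it was lower in 4 of 5 mice of each genotype. In a fit of the control libraries alone the control value was called (-0.30, adjusted p 0.0443), and the cKO value moved with single mice: it was called without H64 (-0.58, adjusted p 0.00509) and without H99 (-0.54, adjusted p 0.0367), was smaller without H95 (-0.27, adjusted p 0.275), and was -0.42 (adjusted p 0.0678) without H64 and H95. The cKO contralateral libraries of Cacna1e ran from 5.93 CPM in H64 to 13.4 CPM in H95. In all, 3 of 10 members did not overlap between the sides in control mice and 2 of 10 in cKO mice, against 23.6% and 20.2% of all tested genes.

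Within a library the alpha1 group shifted toward Cacna1b and away from Cacna1h in both genotypes; no test compared these shifts. Cacna1b made up 46.0% ± 0.511 of the summed level per kb in control contralateral and 50.9% ± 0.551 in control ipsilateral libraries (SD, n = 5), and 45.7% ± 0.876 and 51.1% ± 0.785 in cKO libraries. Cacna1h made up 17.7% ± 1.54 and 14.0% ± 0.346 in control and 17.7% ± 1.24 and 14.1% ± 0.794 in cKO libraries. For both genes the sides did not overlap in either genotype, and they did not overlap without H64 and H95. Cacna1a made up 23.0% ± 0.657 and 22.8% ± 0.585 in control and 22.8% ± 0.725 and 22.7% ± 0.580 in cKO libraries, with overlapping sides. Cacna1c made up 12.2% ± 0.552 and 11.5% ± 0.232 in control libraries, which overlapped, and 12.5% ± 0.356 and 11.4% ± 0.342 in cKO libraries, which did not. Cacna1e made up 1.02% ± 0.101 and 0.811% ± 0.122 in control libraries and 1.21% ± 0.399 and 0.722% ± 0.0870 in cKO libraries.

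Neither beta gene was called in either genotype with all mice. Cacnb3 (ENSMUSG00000003352, the member with the shortest exons, 4.01 kb) had 375 to 395 CPM in control contralateral, 364 to 397 CPM in control ipsilateral, 351 to 379 CPM in cKO contralateral and 363 to 386 CPM in cKO ipsilateral libraries. Its injury log2 fold changes were -0.02 (SE 0.0282, edgeR adjusted p 0.747) in control and 0.06 (SE 0.0282, adjusted p 0.117) in cKO mice. Cacnb4 (ENSMUSG00000017412) had 149 to 162 CPM in control contralateral, 144 to 152 CPM in control ipsilateral, 129 to 165 CPM in cKO contralateral and 145 to 158 CPM in cKO ipsilateral libraries. Its log2 fold changes were -0.07 (SE 0.0486, adjusted p 0.316) and 0.06 (SE 0.0486, adjusted p 0.343). Both genes were called in cKO mice without H99 (Cacnb3 0.08, adjusted p 0.0376; Cacnb4 0.13, adjusted p 0.0375), and without H64 and H95 their values were 0.07 (adjusted p 0.192) and -0.02 (adjusted p 0.814). Cacnb3 made up 84.6% ± 0.672 of their summed level per kb in control contralateral and 85.1% ± 0.257 in control ipsilateral libraries, and 84.8% ± 1.04 and 84.7% ± 0.578 in cKO libraries, with overlapping sides. Exons of A430018G15Rik on the opposite strand cover 1433 bases (16.0%) of the exons of Cacnb4, whose counts are the most exposed of the members to an unstranded setting.

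**Figure D3:**
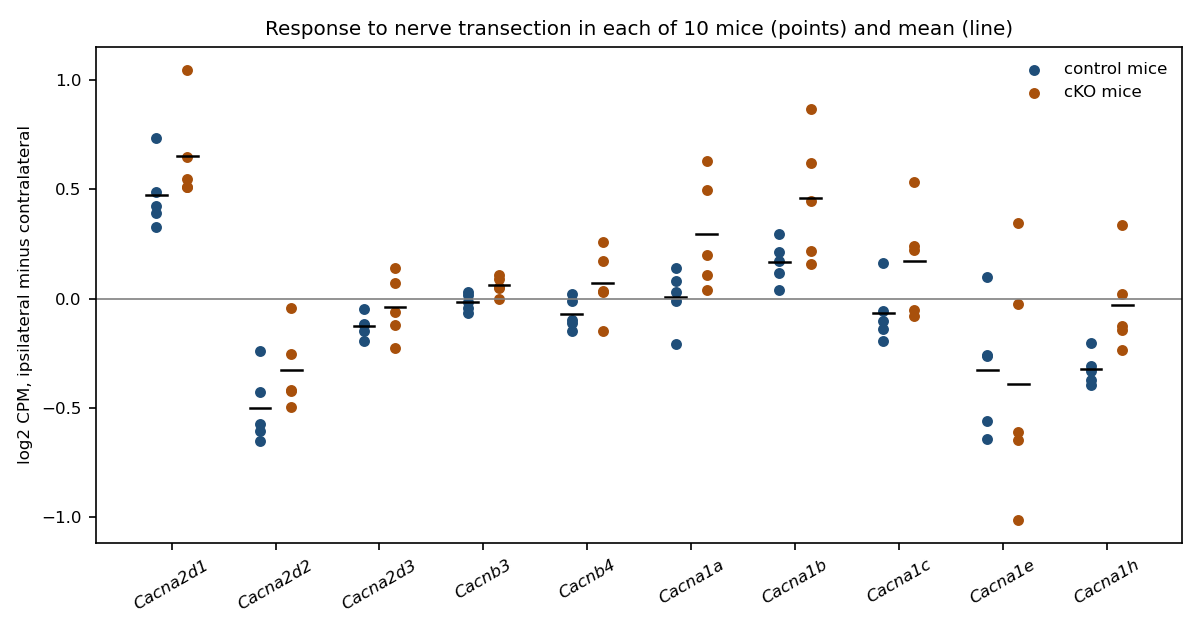
Ipsilateral minus contralateral log2 CPM (vertical axis) of the 10 channel genes, with 1 point per mouse and the mean of 5 mice per genotype as a line. All 10 mice lie above 0 for Cacna2d1 and Cacna1b and below 0 for Cacna2d2, and for Cacna1h all 5 control mice lie below 0 while cKO mice run from -0.24 to 0.34.

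The genotypes were compared on each side to ask whether loss of Ahr in Thy1-expressing cells changed the channel genes. No member was called on the contralateral side, where 0.0735% of all tested genes were called. Of the members, 9 of 10 were below 0, with a median log2 fold change of -0.10 (cKO minus control). Over all tested genes 45.8% were above 0, with a median of -0.01. An unadjusted p under 0.05 in the edgeR fit was found for 6 members, against 17.5% of all tested genes. DESeq2 and limma-voom called 0 members as well, while over all tested genes DESeq2 called 1041 of 28564 and limma-voom 17. The lowest estimates were those of Cacna1a (-0.20, SE 0.0748, adjusted p 0.178), Cacna1b (-0.20, SE 0.0762, adjusted p 0.196), Cacna1h (-0.19, SE 0.0805, adjusted p 0.239) and Cacna1c (-0.16, SE 0.0680, adjusted p 0.239). Cacnb3 had a smaller difference with less spread (-0.09, SE 0.0282, adjusted p 0.134), the lowest adjusted p of the members.

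H64 was the lowest cKO contralateral library for 7 and H95 for the other 3 of the 10 members, and H99 was the highest for 7. Without H64 and H95 the same comparison gave -0.07 for Cacna1a, -0.06 for Cacna1b, -0.06 for Cacna1h, -0.05 for Cacna1c and -0.07 for Cacnb3, with adjusted p from 0.768 to 0.928. Without H99 it went the other way, with 5 members called lower: Cacna1a (-0.27), Cacna1b (-0.27), Cacna1h (-0.25), Cacnb3 (-0.10) and Cacnb4 (-0.15). Calls rose over the whole table in that setting, from 21 genes with all mice to 3326 without H99. Over all genes with at least 5 CPM on average the same comparison depended on exon length. The 2450 genes with 8 kb or more had a median log2 fold change of -0.06 with 24.6% above 0, and the 2069 genes under 2 kb had 0.03 with 64.7% above 0. In the same libraries the 6 fibroblast markers were all above 0 in this comparison, with a median of 0.81, none of them called. The part of fibroblast content and of gene length in the members' values was not tested.

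**Figure D4:**
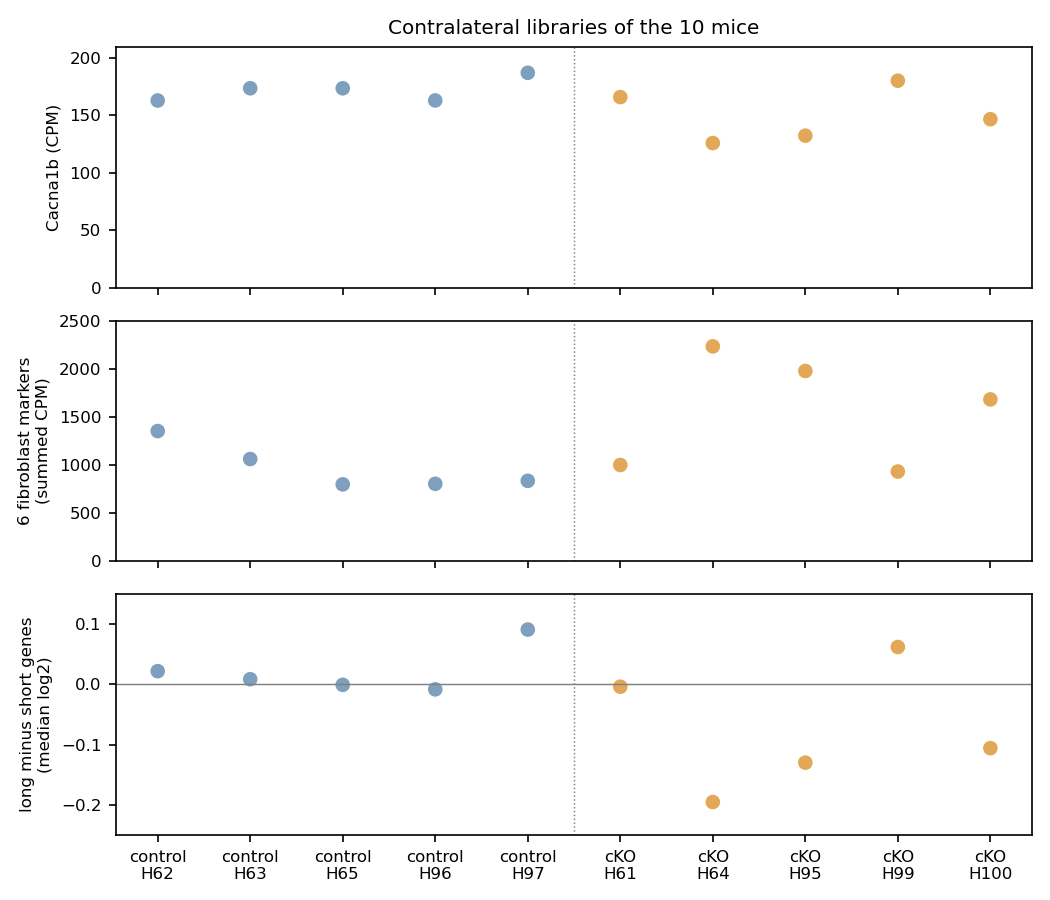
Cacna1b (CPM), the summed CPM of 6 fibroblast markers and the median log2 level of genes with at least 8 kb of exons minus that of genes under 2 kb, for the contralateral library of each of the 10 mice (horizontal axis, control left and cKO right). H64, H95 and H100 have the 3 lowest Cacna1b levels, the 3 highest fibroblast sums and the 3 lowest long-gene values.

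On the ipsilateral side no member was called (edgeR, 0.00700% of all tested genes called) and none had an unadjusted p under 0.05. The log2 fold changes ran from -0.08 (Cacna1e) to 0.10 (Cacna1h), with a median of 0.08. Of the 10 members 7 were above 0, against 50.1% of all tested genes. Without H64 and H95 Cacna1e and Cacna1h had -0.04 and 0.10. DESeq2 and limma-voom called 0 members there too. The ranges of the genotypes overlapped for all 10 members on both sides, whereas 1.52% of all tested genes did not overlap contralaterally and 0.599% ipsilaterally. The SEs of the members' genotype differences were 0.0282 (Cacnb3) to 0.164 (Cacna1e) on this side. A difference of the size of these SEs would not have been detectable, and clearly larger ones could also have gone uncalled. Contralaterally, for example, Cacnb3 at -0.088 (SE 0.0282) was not called (edgeR adjusted p 0.134).

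The interaction, which tests whether the injury response differed between the genotypes, was called for no member and for 0.00% of all tested genes (edgeR), and DESeq2 and limma-voom called 0 members. An unadjusted p under 0.05 was found for 4 members, against 9.80% of all tested genes: Cacna1b (0.29), Cacna1h (0.28), Cacna1a (0.28) and Cacna1c (0.24). Members above 0 numbered 9 of 10, against 52.9% of all tested genes and 73.1% of the genes with 8 kb or more of exons. The median of the members was 0.17, against 0.01 over all tested genes and 0.06 over those long genes. Without H64 and H95 these 4 estimates were 0.10, 0.15, 0.11 and 0.09, and none of the 10 had an unadjusted p under 0.05. These values and those of the cKO injury comparison share the cKO contralateral libraries.

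**Figure D5:**
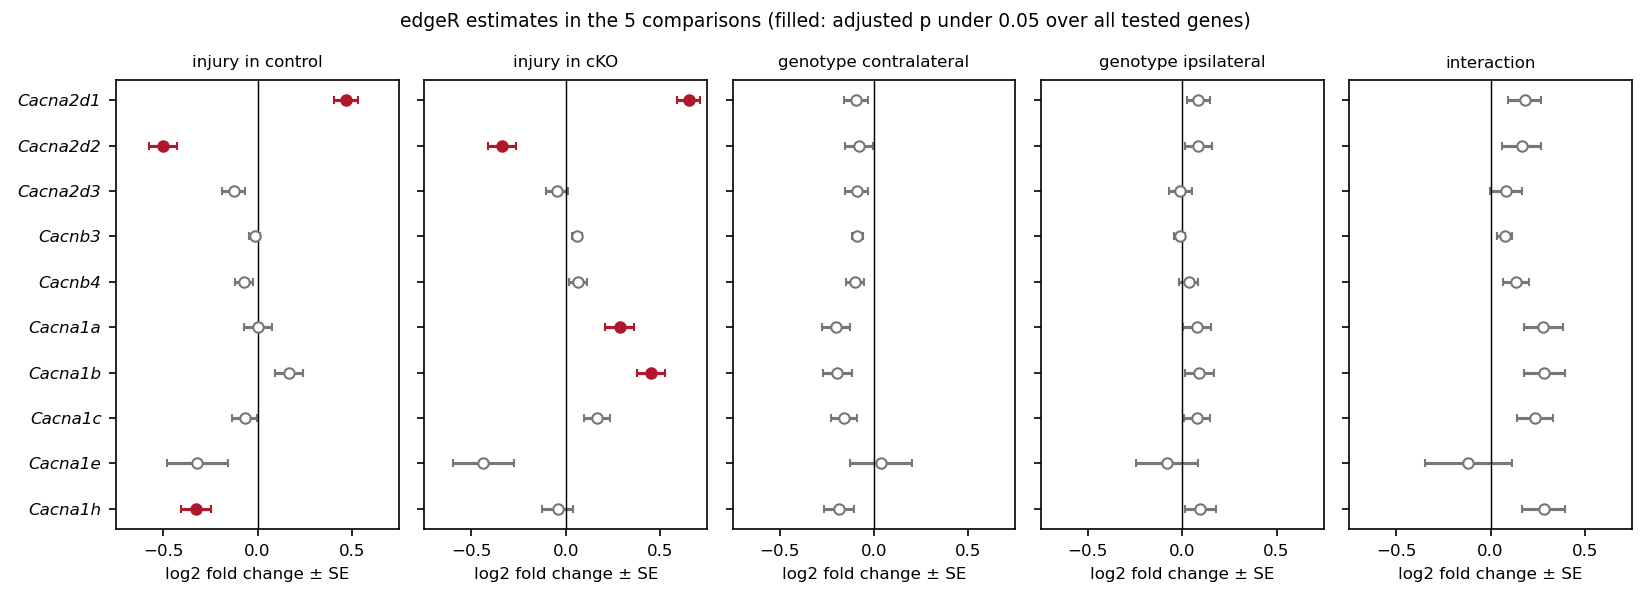
edgeR log2 fold change and SE (horizontal axes) of the 10 channel genes in the 5 comparisons, with filled points for adjusted p under 0.05. Filled points appear in the injury comparisons only, 3 in control and 4 in cKO mice. In the contralateral genotype comparison 9 of 10 estimates lie below 0, where 45.8% of all tested genes were above 0. In the interaction 9 of 10 lie above 0, against 52.9% of all tested genes.

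Of 16 other channel subunit genes, 5 were called in control mice, all lower ipsilaterally, and 6 in cKO mice, 2 higher and 4 lower (edgeR; median log2 fold changes -0.12 and -0.27), against 29.9% and 31.3% of all tested genes. Called in both genotypes were Cacng2 (-0.53 and -0.41) and Cacng5 (-0.42 and -0.34), whose proteins escort AMPA-type glutamate receptors more than calcium channels, and Cacnb2 (-0.47 and -0.44), a beta subunit at 6.54 CPM in control contralateral libraries. Cacng2 had 28.8 ± 1.5 CPM contralaterally and 19.98 ± 0.806 CPM ipsilaterally in control mice, and 25.8 ± 4.28 and 19.4 ± 0.942 CPM in cKO mice (SD, n = 5). In none of the genotype or interaction comparisons was one of the 16 called by edgeR, with 4, 0 and 2 at an unadjusted p under 0.05; over all tested genes the shares at that p were 17.5%, 2.36% and 9.80%. On the contralateral side DESeq2 called 2 of the 16, against 1041 of 28564 genes, and limma-voom called 0. The 6 skeletal muscle markers had median injury log2 fold changes of 0.48 in control and -3.46 in cKO mice, none of them called. The part of muscle content in the values of the 16 genes was not tested.

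Among 20 regulators and ligands of the channels, 6 were called in control mice (1 higher, 5 lower) and 10 in cKO mice (2 higher, 8 lower), against 29.9% and 31.3% of all tested genes. The cKO count was 5 without H64 and H95, and that over all tested genes fell from 8939 to 5587. Stac, an adaptor protein that binds L-type channels and slows their inactivation, rose from 82.3 ± 5.31 to 132 ± 7.56 CPM in control mice (0.68, SE 0.0627, edgeR adjusted p 4.59e-08) and from 74.0 ± 7.25 to 128 ± 8.19 CPM in cKO mice (0.80, SE 0.0628, adjusted p 3.76e-09). Rem2, a small GTPase that inhibits high-voltage-activated calcium channels, fell from 22.1 ± 1.56 to 13.0 ± 1.49 CPM in control mice (-0.77, SE 0.147, adjusted p 5.10e-04) and from 22.8 ± 5.18 to 15.2 ± 3.28 CPM in cKO mice (-0.59, SE 0.146, adjusted p 0.00448). Rimbp2, which links channels to the release machinery, fell as well (-0.44 and -0.38). Cachd1, an alpha2delta-like protein (-0.23 and -0.13), and Rims2, a release-site scaffold (-0.21 and -0.14), were called in both genotypes. In cKO mice the Rims2 call was lost without H61, H99 or H100, and the Cachd1 call without H61, H63, H65, H95, H96 or H99 and without H64 and H95, with values of -0.08 to -0.16. Between genotypes and in the interaction edgeR called none of the 20, with 8 contralateral, 0 ipsilateral and 4 interaction values at an unadjusted p under 0.05 (17.5%, 2.36% and 9.80% of all tested genes). DESeq2 called 3 of the 20 contralaterally, against 1041 of 28564 genes.

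Of 26 pumps, exchangers, store channels and buffers, 10 were called in each genotype, 5 higher and 5 lower, against 29.9% and 31.3% of all tested genes. Itpr1, a channel that releases calcium from the endoplasmic reticulum, rose most, from 19.6 ± 0.797 to 65.5 ± 4.16 CPM in control mice (log2 fold change 1.74, SE 0.0706, edgeR adjusted p 1.77e-13) and from 22.1 ± 2.85 to 67.6 ± 4.46 CPM in cKO mice (1.61, SE 0.0703, adjusted p 3.44e-13). Ryr3, another release channel (0.48 and 0.58), Orai1, a store-operated entry channel (0.23 and 0.23), and Slc8a3, a sodium-calcium exchanger (0.19 and 0.26), rose in both genotypes. Orai2, a relative of Orai1 (-0.35 and -0.27), and Mcu, the mitochondrial calcium uniporter (-0.31 and -0.22), fell in both. Atp2b2, a plasma membrane calcium pump, fell in control (-0.45, adjusted p 5.67e-04) and in cKO mice (-0.26, adjusted p 0.0274), where the call was lost without H61 (-0.23, adjusted p 0.113). None of the 26 was called between genotypes or in the interaction by edgeR, DESeq2 or limma-voom; 3, 0 and 2 had an unadjusted edgeR p under 0.05, against the same 17.5%, 2.36% and 9.80% of all tested genes.

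Genes whose levels ran most closely with those of the 2 alpha2delta genes that changed were ranked by Pearson's r of log2 CPM over the 20 libraries, among 13101 genes with at least 5 CPM on average. Cacna2d1 was followed most closely by Slk (0.984), Slc4a8 (0.977), Plxna4 (0.977), Pcsk1 (0.977) and Dclk1 (0.976). Cacna2d2 was followed by Dab2ip (0.966), Bves (0.964), Pitpnm2 (0.959), Map7 (0.957) and Gprasp2 (0.956). The libraries fall into a contralateral and an ipsilateral set and come in pairs from 10 mice, so these values hold the injury difference itself and describe likeness only.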

How the data were processed

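The table used was deposited by the authors as raw counts of exonic reads, whole numbers with a column for each library, per the file headers. The mRNA libraries were stranded and sequenced in pairs of 150 bp, per the labels; HISAT2, Picard and the builds mm10 and mm39 are named in the submitters' processing notes, and the counter, the annotation and the strand setting are not given in the sources used here. One label field names a spinal cord injury; the protocol, which describes sciatic transection, was followed, and a title with a shortened mouse number was read by its library name. The deposited FPKM table was not used.

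Symbols came from GENCODE M21 by Ensembl identifier (51487 of 78258 rows, 98.1% of counts), as did exon lengths and gene coordinates (GRCm38, which may differ from the build of the counts). The tests used edgeR 4.0.16 under R 4.3.3, with TMM factors, filterByExpr (minimum count 10, minimum total 15) and the robust quasi-likelihood F-test; 1 model held all 20 libraries with a mean per group; SE is the log2 fold change divided by the square root of F. P-values were adjusted over 28564 genes in each of 5 comparisons and called under 0.05. The procedure was tested on simulated data. These were drawn without a mouse effect and without libraries that stand apart, so that test does not cover such features of the real data. Replicates differed by more than counting error (chi-square per degree of freedom 5.31 to 58.3 over 40 pairs), and intervals between libraries rest on mice, not reads.

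Contralateral and ipsilateral libraries with the same number come from the same animal. Across genes their deviations from the group means correlated with a median of 0.186 (-0.0546 to 0.361, over 0.1 in 7 of 10 mice). The replicate block (mouse) was an alternative, with RLE size factors, DESeq2 1.42.0, limma-voom (limma 3.58.1) with mouse as a random effect, no filter, a minimum of 1 for the mean CPM, only the libraries compared, leaving out each mouse, and, chosen after the data were seen, leaving out H64 and H95.

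The members, the 3 further lists, the markers and the tests were chosen with earlier results of these data known. Genes of the further lists were named if called in both injury comparisons and at 5 CPM or more on average in the higher group, at most 4 per list and direction.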

Additional observations from a re-analysis of the deposited data

Results flagged for a closer look

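In 3 of 60 groups of 5 values (the 4 groups and the 2 sets of injury responses of each of the 10 genes) 1 mouse lay far from the other 4, with a gap to its nearest neighbour of more than 0.71 of the whole range; chance alone gives this in about 1 in 20 groups, or 3 here. All 3 values belong to mouse H64, a cKO mouse. Cacna2d1 had 221 CPM in its contralateral library, against 269 to 279 CPM in the other 4 cKO mice (ratio of gap to range 0.83). The Cacna2d1 response of the same mouse, 1.05 on the log2 scale, lay above the 0.51 to 0.65 of the others (ratio 0.742). Cacna1b had 230.1 CPM in its ipsilateral library, against 193 to 203 CPM (ratio 0.719). The contralateral library of H64 also had the highest sum of fibroblast markers of the 10 contralateral libraries, 2236 CPM. Its ipsilateral library had 1120 CPM, within the 848 to 1558 CPM of the cKO ipsilateral group. In that ipsilateral library long genes lay 0.129 above short genes on the log2 scale, against -0.020 to 0.017 in the other cKO ipsilateral libraries. The H64 contralateral library deviated in the opposite direction (-0.195). Whether these move together for a reason was not tested.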

How the results depend on the processing

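Of 870 values of single members under the alternatives, 825 kept their direction and their side of the threshold, 21 changed sign, 22 gained a call and 2 lost one (Cacna1a in cKO mice, given above); none of the sign changes was in a value called by the edgeR fit. Members called in control mice numbered 6 with only the libraries compared, where 8801 of all genes were called against 8540, and 3 to 4 when a mouse was left out. In cKO mice they ran from 4 to 8 when a mouse was left out (8 without H99, with 9077 of all genes called) and were 3 without H64 and H95. Contralaterally between genotypes they ran from 0 to 5 (5 without H99, with 3326 of all genes called). Over all genes, 5587 were called in cKO mice without H64 and H95, against 8939. The 21 genes called contralaterally between genotypes became 1041 with DESeq2 (667 higher, 374 lower, against 7 and 14), 50 without a filter, 45 with a mean CPM of at least 1, 2 with only the libraries compared, 3 without H64 and H95, and 4 (without H95) to 3326 (without H99) when a mouse was left out. The interaction gave 11 with DESeq2 and 0 to 43 when a mouse was left out. Leaving out H64 and H95 reversed Cacna2d2 (0.0231) and Cacna2d3 (0.0022) contralaterally, Cacnb3 ipsilaterally (0.0037), Cacna2d3 in the interaction (-0.0154) and Cacnb4 in cKO injury (-0.0229), and only the libraries compared reversed Cacnb3 in control injury (0.0013). Leaving out a mouse turned Cacna1a (-0.0277 to 0.0742) and Cacnb3 (-0.0229 to 0.0062) in control injury, Cacna2d3 (-0.0838 to 0.0088) and Cacna1h (-0.124 to 0.0162) in cKO injury, Cacna1e contralaterally (-0.0774 to 0.176), Cacna2d3 (-0.0238 to 0.0135) and Cacnb3 (-0.0296 to 0.009) ipsilaterally, and Cacna1e in the interaction (-0.265 to 0.0359). Cacna1c was called in cKO injury with DESeq2, limma-voom, a mean CPM of at least 1, without H61 and without H99, and Cacna1e with DESeq2, a mean CPM of at least 1, without H64 and without H99. The replicate block changed the call of Cacna2d3 in control injury and of no other member. The cause was not tested where a value moved.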
